A study of Mus musculus with 9 samples.

Results

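Collagen chain genes were followed in endothelial cells (ECs) sorted from mouse lungs with and without breast cancer metastases. All genes whose symbol has the form of a collagen alpha chain in the annotation of the array were taken, which gave 42 chains among 18193 genes, measured by 82 probe sets. A probe set is a group of short probes against the 3′ part of a transcript, and the probe set that was brightest on average stood for each chain. The chains were divided into 11 fibrillar chains, 8 basement membrane chains (6 of type IV, with the multiplexins Col15a1 and Col18a1) and 23 other chains. The mice were of the NSG strain, which lacks T, B and NK cells, and were 6 to 8 weeks old. CD31-positive cells of the whole lung were sorted after exclusion of GFP-positive cancer cells and of cells with CD45, CD11b, EpCAM or CD140a/b. The 3 groups held 3 arrays each. The first came from healthy mice given control rat IgG. The other groups came from mice 3 weeks after tail vein injection of MDA-MB-231-LM2, human breast cancer cells selected for growth in the lung, given on days 21 and 24 either control rat IgG or DC101 at 40 mg per kg, with harvest on day 25. DC101 is an antibody raised in rat against VEGFR2, the main signalling receptor for VEGF on ECs. The labels number the arrays of a group as biological replicates without naming the mice, so p-values measure the spread between these arrays, and the number of arrays limits the precision.

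Collagens are trimers of alpha chains wound into a triple helix. Fibrillar collagens (types I, II, III, V, XI, XXIV and XXVII) form the cables of connective tissue and are mainly made by fibroblasts. Type IV collagen forms the sheet of the basement membrane on which ECs sit, and its chains combine in fixed ways: alpha 1 with alpha 2 in nearly all vessels, and alpha 3, alpha 4 and alpha 5 in the alveolar and glomerular basement membranes. Types XV and XVIII are proteoglycans of the basement membrane zone, and a C-terminal fragment of type XVIII is endostatin. Type VI forms beaded filaments beside the basement membrane, from alpha 1, alpha 2 and one further chain.

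Values are RMA signals on the log2 scale, where 1 unit is a doubling. They can be compared between arrays for 1 probe set, but not between probe sets as amounts. Of the 42 chains, 29 had a mean signal below the median gene (9.03), and Col4a1 and Col4a2 had the highest means (14.29 and 13.87), close to the highest gene value in the table (14.61). The cartilage chains Col2a1, Col9a1, Col10a1 and Col11a2 sat between 6.81 and 7.65 on average. The table holds no detection calls, so a low signal cannot be separated from none. The endothelial genes Pecam1, Cdh5 and Kdr averaged 13.66 to 14.16 in every group, and the 15 pan-endothelial markers averaged 13.46 to 13.61 on each array. Arrays of a group correlated at 0.983 to 0.991 over all genes. The difference between the 3′ and 5′ control probe sets of Gapdh, a sign of RNA integrity, was 0.69 to 0.77 on the healthy arrays, 0.47 to 0.57 on the metastatic IgG arrays and 0.35 to 0.60 on the DC101 arrays, while for beta-actin it overlapped between groups (−0.11 to 0.14). The part of RNA integrity in the changes below was not tested.

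Metastatic IgG was first compared with healthy IgG, which asks how collagen expression differs in ECs of lungs with metastases. Of the 42 chains, 7 rose and 4 fell (limma, Benjamini-Hochberg adjusted p under 0.05 over all genes). Over all genes, 3.93% were called higher and 2.60% lower in this comparison. The risen chains were Col1a1, Col1a2 and Col3a1 of the fibrils, Col4a2, Col15a1 and Col18a1 of the basement membrane, and Col6a2 of the beaded filaments. The fallen chains were Col4a3 and Col4a4 of the basement membrane, and Col12a1 and Col20a1, which are FACIT collagens that associate with the surface of fibrils. The groups did not overlap for 23 of the 42 chains, against 27.6% of all genes. The count of 11 depended on single arrays: it was 6 without healthy array 1 or without metastatic IgG array 2 or 3, and the 6 were then Col1a1, Col4a3, Col4a4, Col15a1, Col18a1 and Col20a1.

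**Figure D1:**
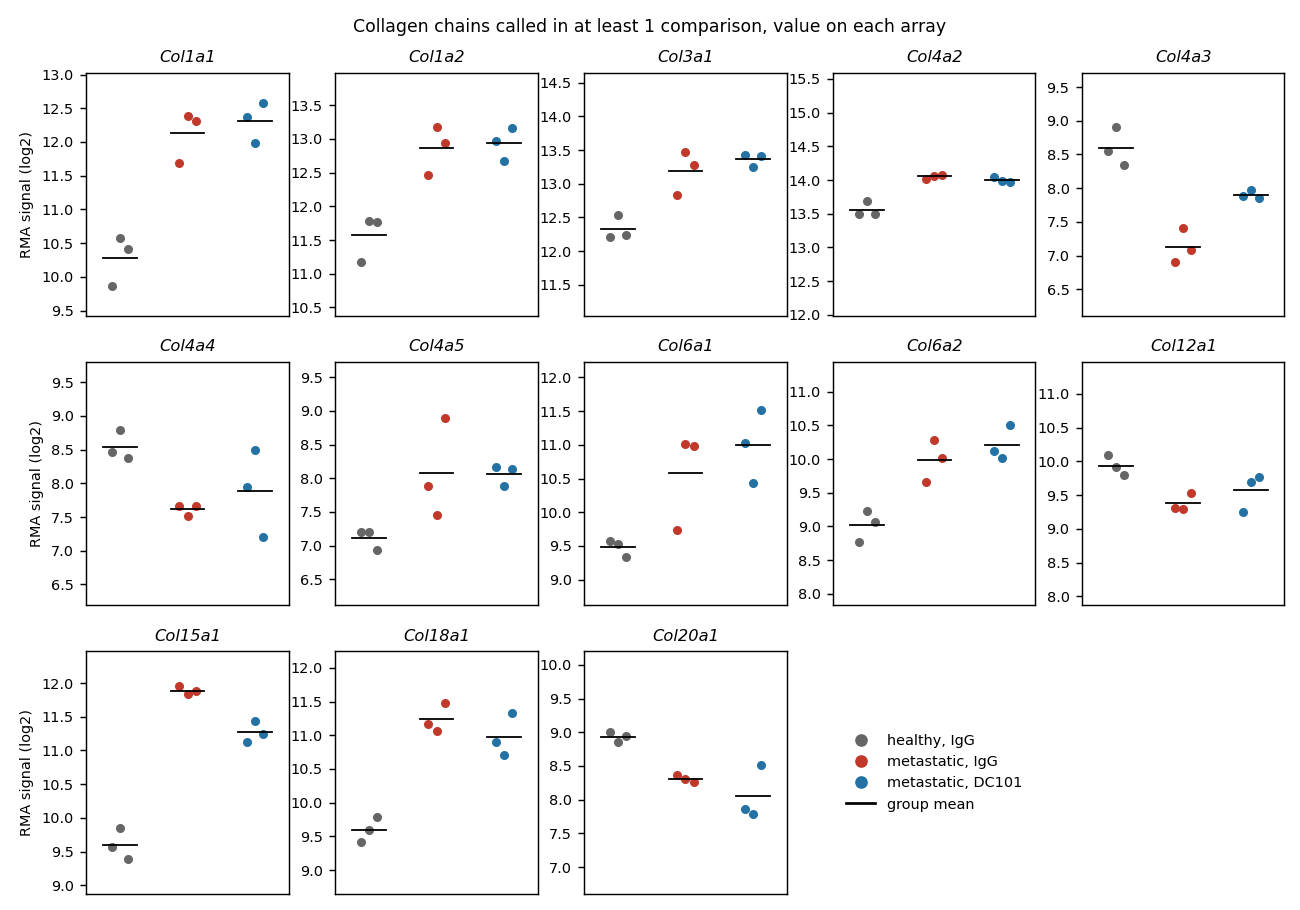
RMA signal (log2, y axis) on each of the 9 arrays for the 13 chains called in at least 1 comparison; points are arrays, coloured by group, bars are group means, and each panel spans the same number of log2 units. Col15a1 separates all 3 groups, with healthy arrays at 9.39 to 9.85, DC101 arrays at 11.12 to 11.43 and metastatic IgG arrays at 11.83 to 11.95. So does Col4a3, with healthy arrays at 8.34 to 8.91, DC101 arrays at 7.85 to 7.97 and metastatic IgG arrays at 6.90 to 7.41. Between DC101 and metastatic IgG, groups did not overlap for 3 of the 42 chains, against 12.4% of all genes, and 0 chains were called.

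The largest increase among the chains was that of Col15a1. Its signal was 9.57, 9.85 and 9.39 on the healthy arrays and 11.95, 11.83 and 11.88 on the metastatic IgG arrays. The change was 2.28 ± 0.13 (SE, n = 3 and 3), which is 4.86-fold (limma adjusted p = 0.00041). Col18a1, the endostatin precursor, measured 9.41, 9.59 and 9.79 in healthy and 11.17, 11.07 and 11.48 in metastatic ECs. It rose 3.12-fold, by 1.64 ± 0.15 (limma adjusted p = 0.00188), and its other probe set gave 2.05 ± 0.11. Both multiplexins stayed called when any of the 6 arrays was left out, with adjusted p of at most 0.00498 and 0.0125. Both belong to the signature of secreted proteins that the study drew from week 3 arrays of this metastasis model, so their direction is what they were chosen for and is not independent evidence.

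Among the fibrillar chains, both chains of type I collagen and the single chain of type III rose. Col1a1 was at 9.86, 10.57 and 10.41 on the healthy arrays and at 11.69, 12.38 and 12.31 on the metastatic IgG arrays, a 3.60-fold rise (1.85 ± 0.24, limma adjusted p = 0.00761) that stayed called without any single array. Its partner Col1a2 was at 11.17, 11.79 and 11.77 against 12.46, 13.18 and 12.94. Col1a2 rose 2.44-fold (1.29 ± 0.24, limma adjusted p = 0.0234), and the 3 values of one group lay clear of those of the other. Col3a1 moved from 12.21, 12.53 and 12.24 to 12.83, 13.47 and 13.28, a 1.82-fold rise (0.87 ± 0.18, limma adjusted p = 0.0367). The calls of the last pair rested on few arrays. That of Col1a2 was lost without healthy array 1 or metastatic IgG array 2 or 3 (adjusted p of 0.0623 to 0.0833). That of Col3a1 was lost without any healthy array, or without metastatic IgG array 2 or 3 (0.055 to 0.121). Col5a1 and Col5a2 of type V, a collagen that sets the diameter of type I fibrils, did not pass the test, although their groups did not overlap. Col5a2 read between 10.93 and 11.62 in healthy ECs and 11.80, 12.06 and 11.96 in metastatic ECs (0.76 ± 0.19, limma adjusted p = 0.0668). Col5a1 read 9.71, 10.01 and 10.15 against 10.53, 10.83 and 10.37 (0.62 ± 0.16, limma adjusted p = 0.0734). Its other probe sets gave 0.27 ± 0.14 and −0.05 ± 0.28 with overlapping groups, so the change of Col5a1 depends on the probe set. The other probe set of Col5a2 lay on the same side of 0 as the one used. The 6 other fibrillar chains (Col2a1, Col5a3, Col11a1, Col11a2, Col24a1 and Col27a1) differed by −0.28 to −0.03, with a lowest adjusted p of 0.252. The median change of the 11 fibrillar chains was −0.03 and that of all genes −0.02. By the probe sets used, the class divided into 5 chains above 0 (Col1a1, Col1a2, Col3a1, Col5a1 and Col5a2) and 6 chains below it. Those 5 had mean signals of 10.36 to 12.96. The 6 had mean signals of 6.15 to 7.87, below the median gene (9.03), where a low signal cannot be separated from none.

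The type IV chains went in both directions. Col4a2 was at 13.49, 13.69 and 13.49 on the healthy arrays and at 14.02, 14.06 and 14.08 on the metastatic IgG arrays. It rose 1.41-fold (0.50 ± 0.09, limma adjusted p = 0.0265), and the call was lost without healthy array 1 or 3 or any metastatic IgG array (0.0694 to 0.0912). Col4a1, its partner in the vascular trimer, was at 14.11, 14.18 and 14.09 against 14.36, 14.40 and 14.36. Its change of 0.24 ± 0.08 did not pass (limma adjusted p = 0.142), its groups did not overlap, and its signal was near the top of the scale. By contrast, Col4a3 read 8.55, 8.91 and 8.34 in healthy and 6.90, 7.41 and 7.08 in metastatic ECs. It fell 2.78-fold (−1.47 ± 0.19, limma adjusted p = 0.00631). Col4a4 read 8.46, 8.79 and 8.38 against 7.67, 7.51 and 7.66 and fell 1.91-fold (−0.93 ± 0.13, limma adjusted p = 0.00884). Both stayed called without any single array, but Col4a4 was not called when all 9 arrays shared 1 fit (0.0902) or when its 3 probe sets were averaged (0.0781). The third chain of that trimer, Col4a5, read 7.21, 7.20 and 6.94 against 7.88, 7.46 and 8.90 (0.96 ± 0.34, limma adjusted p = 0.157), so its values lay on the opposite side. Col4a6 differed by −0.49 ± 0.21 (limma adjusted p = 0.229). The median change was 0.37 over the 8 basement membrane chains and −0.12 over the 6 type IV chains alone.

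In RefSeq (GRCm38.p6) these genes lie in head-to-head pairs, Col4a1 beside Col4a2, Col4a3 beside Col4a4 and Col4a5 beside Col4a6, with 0 protein-coding genes between the members of a pair. The changes in a pair were 0.24 and 0.50, −1.47 and −0.93, and 0.96 and −0.49. By the probe sets used, the pairs of Col4a1 and of Col4a3 each shared a sign and that of Col4a5 did not. Col4a1, Col4a5 and Col4a6 were not called. Other probe sets gave −0.05 ± 0.20 for Col4a5 and 0.01 ± 0.31 for Col4a4, so the shared signs depend on the probe set. Col3a1 and Col5a2, also neighbours, were at 0.87 and 0.76, and the neighbours Col6a1 and Col6a2 at 1.10 and 0.96.

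Among the other chains, Col6a2 of type VI was the one that rose. It read 8.77, 9.23 and 9.07 on the healthy arrays and 9.66, 10.28 and 10.01 on the metastatic IgG arrays, a 1.95-fold rise (0.96 ± 0.19, limma adjusted p = 0.0291). The call was lost without healthy array 1 or 3 or metastatic IgG array 2 or 3 (0.0714 to 0.0924), and both probe sets of the gene are of types that can bind related transcripts. Col6a1 read 9.58, 9.53 and 9.34 against 9.73, 11.01 and 10.99. The lowest metastatic array lay close to the healthy ones, and the change of 1.10 ± 0.33 did not pass (limma adjusted p = 0.113). Col6a3, the usual partner of both in the type VI trimer, read 8.63, 8.37 and 8.25 against 8.93, 9.20 and 9.78 (0.89 ± 0.22, limma adjusted p = 0.0637). Its groups did not overlap. Col6a4 and Col6a5 were dim and differed by 0.13 ± 0.18 and −0.08 ± 0.14.

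Col20a1 fell from 9.01, 8.85 and 8.95 to 8.37, 8.31 and 8.26, which is 1.54-fold (−0.62 ± 0.09, limma adjusted p = 0.0100). It stayed called without any single array, but not with all 9 arrays in 1 fit (0.0773). Col12a1 fell from 10.09, 9.91 and 9.80 to 9.31, 9.30 and 9.53, which is 1.47-fold (−0.55 ± 0.12, limma adjusted p = 0.0371). Its call was lost whenever any of the 6 arrays was left out (0.0546 to 0.111), with all 9 arrays in 1 fit and with the mean of its probe sets. Col17a1, a transmembrane collagen of epithelial hemidesmosomes, read 9.58, 9.53 and 8.68 against 8.59, 7.90 and 8.39 (−0.97 ± 0.28, limma adjusted p = 0.0984). The remaining 15 chains (Col7a1, Col8a1, Col8a2, Col9a1, Col9a2, Col9a3, Col10a1, Col13a1, Col14a1, Col16a1, Col19a1, Col22a1, Col23a1, Col25a1 and Col26a1) differed by −0.32 to 0.54, and the lowest adjusted p among them was 0.0835. The median change of the 23 other chains was 0.00.

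**Figure D2:**
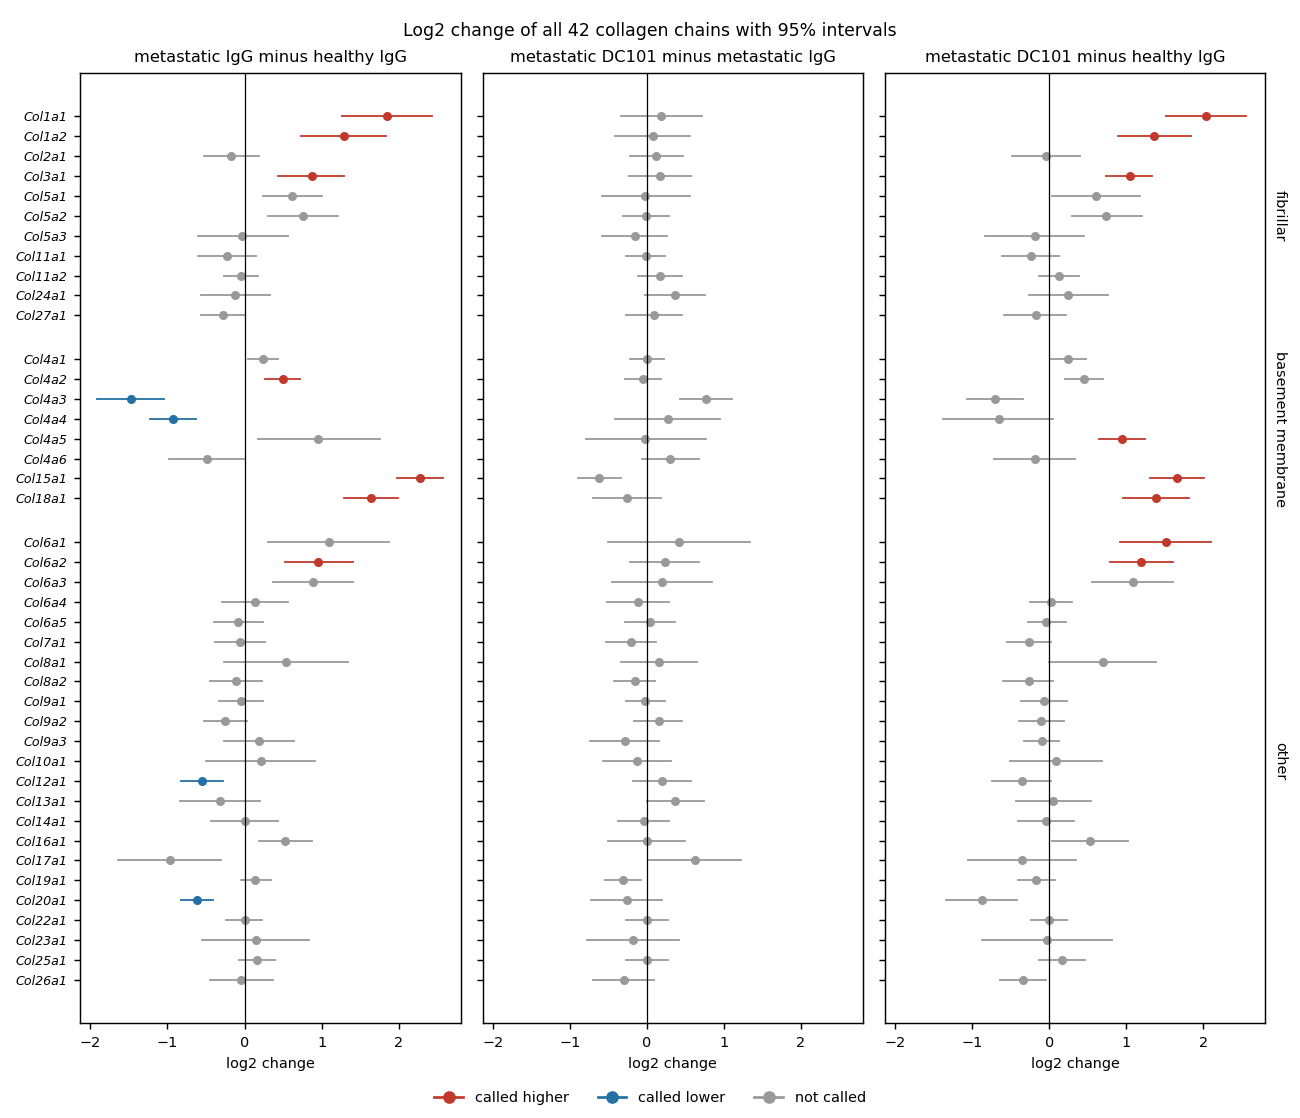
Log2 change (x axis) of each of the 42 chains (rows, by class) in the 3 comparisons, with the 95% interval from limma; red is called higher, blue called lower, grey not called. Calls appear in the panels against healthy ECs (11 and 8 chains) and the panel of DC101 against IgG has 0.

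Where a chain had several probe sets, their agreement varied. Of the 27 chains with more than 1 probe set, all probe sets lay on the same side of 0 in 18 (metastatic IgG against healthy IgG). Col14a1, which was not called, had other probe sets at −0.67 ± 0.21 and 0.81 ± 0.23. Of the 9 called chains with more than 1 probe set, all lay on the same side in 8. The second probe sets of Col1a1 (2.17 ± 0.26), Col3a1 (1.41 ± 0.23) and Col6a2 (0.76 ± 0.19) stood higher in metastatic ECs. Those of Col1a2 gave 2.12 ± 0.32 and, from a dim probe set, 0.28 ± 0.34. The second probe set of Col4a3 gave −0.74 ± 0.16. The exception among the called chains was Col4a4, with −1.07 ± 0.36 and 0.01 ± 0.31 beside the −0.93 of the probe set used. The second probe set of Col4a5 gave −0.05 ± 0.20 where the one used gave 0.96. Col12a1 and Col20a1 had smaller values from their other probe sets, −0.33 to −0.13 and −0.51 to −0.24.

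**Figure D3:**
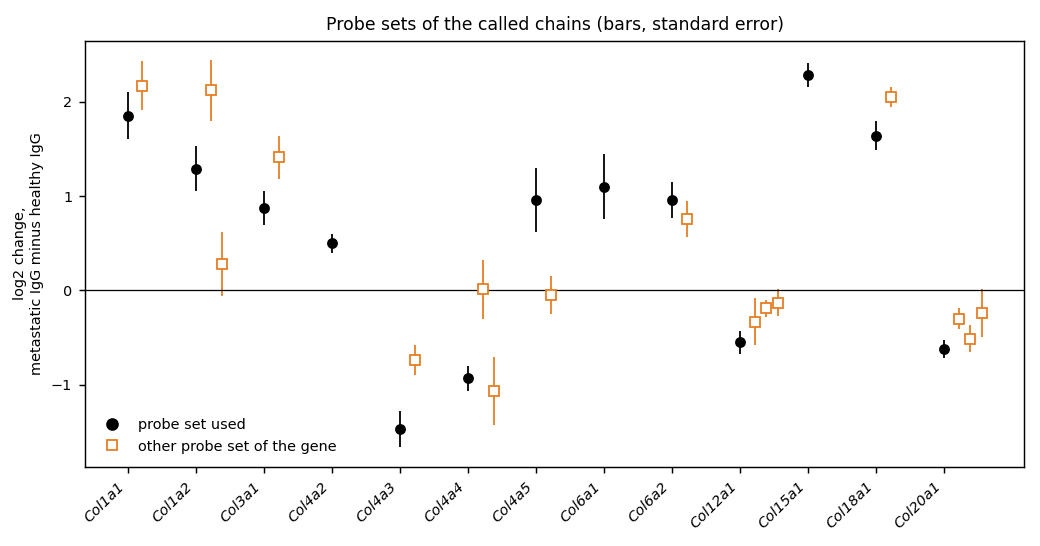
Log2 change of metastatic IgG minus healthy IgG (y axis, bars are standard errors) for each probe set of the 13 chains called in at least 1 comparison; black circles are the probe sets used and open squares the others. The squares of Col1a1, Col3a1 and Col18a1 lie above the circles, while Col4a4 and Col4a5 each have a square near 0.

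The stretches upstream of the risen chains are shown for 4 genes whose listed start is the outer end of the gene and whose window overlaps no other gene, to let the sequence before the start be read beside the change. They are the 250 bases before the RefSeq start (GRCm38.p6, 5′ to 3′ on the strand of the gene). Capitals mark the letters CCAAT (the CCAAT box), GGGCGG (the GC box) and TATAAA (the TATA box) on either strand. Of the 32851 upstream windows of this length in the same table, 33.8% held a CCAAT box, 32.7% a GC box and 12.4% a TATA box by these letters. The windows are Col1a2 at chr6:4505368-4505617 (plus strand), Col3a1 at chr1:45311288-45311537 (plus), Col6a2 at chr10:76623631-76623880 (minus) and Col18a1 at chr10:77166531-77166780 (minus).
Col1a2: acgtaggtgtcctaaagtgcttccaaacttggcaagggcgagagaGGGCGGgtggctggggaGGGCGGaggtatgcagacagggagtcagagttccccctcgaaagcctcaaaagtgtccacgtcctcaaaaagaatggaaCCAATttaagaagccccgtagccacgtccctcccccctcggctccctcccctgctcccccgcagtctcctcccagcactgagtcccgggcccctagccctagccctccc
Col3a1: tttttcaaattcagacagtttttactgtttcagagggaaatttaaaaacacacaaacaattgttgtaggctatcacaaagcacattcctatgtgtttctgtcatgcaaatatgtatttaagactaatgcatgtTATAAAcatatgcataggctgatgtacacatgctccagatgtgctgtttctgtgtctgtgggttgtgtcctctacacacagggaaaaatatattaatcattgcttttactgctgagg
Col6a2: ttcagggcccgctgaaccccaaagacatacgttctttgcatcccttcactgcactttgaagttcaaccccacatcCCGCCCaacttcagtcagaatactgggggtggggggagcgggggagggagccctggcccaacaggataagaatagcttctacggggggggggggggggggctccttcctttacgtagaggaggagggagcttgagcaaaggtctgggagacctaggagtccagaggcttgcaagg
Col18a1: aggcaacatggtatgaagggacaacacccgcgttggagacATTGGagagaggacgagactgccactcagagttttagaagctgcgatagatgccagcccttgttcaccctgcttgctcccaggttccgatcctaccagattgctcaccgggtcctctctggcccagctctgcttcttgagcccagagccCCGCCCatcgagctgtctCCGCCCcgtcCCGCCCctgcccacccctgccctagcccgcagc
Col1a2 held 1 CCAAT box and 2 GC boxes, Col18a1 held 1 CCAAT box and 3 GC boxes, Col6a2 held 1 GC box and Col3a1 held 1 TATA box. No motif of the 3 was present in all 4 windows, and a match is only a match of letters.

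Genes that act on collagen were read beside the chains. Of 20 genes for modification and folding in the endoplasmic reticulum, 2 rose: Plod1, a lysyl hydroxylase, by 0.58 ± 0.10 (limma adjusted p = 0.0166), and Serpinh1, the collagen chaperone HSP47, by 0.46 ± 0.08 (limma adjusted p = 0.0237). Of 16 genes for maturation and cross-linking, Bmp1, the procollagen C-proteinase, rose by 0.53 ± 0.12 (limma adjusted p = 0.0493), and Dcn, a proteoglycan that binds fibrils, fell by 1.05 ± 0.24 on the log2 scale (limma adjusted p = 0.0466). Of 11 collagen receptors 0 were called by limma, and 1 had an unadjusted p under 0.05, as had 3873 of all 18193 genes. Of 20 other basement membrane components, 5 rose and 0 fell. They were the laminin chains Lamb1 (2.42 ± 0.12, limma adjusted p = 0.000227), Lama1 (2.11 ± 0.19, 0.00197), Lama4 (1.44 ± 0.13, 0.00172) and Lamc1 (0.66 ± 0.09), and Nid1 (0.39 ± 0.08, named after its value was seen), which links laminin to type IV collagen. The medians of these 4 lists were 0.19, 0.17, −0.09 and −0.18, beside −0.02 over all genes.

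Markers of other cells that the gate could hold moved in the same comparison. Fibroblast markers, from cells that make types I, III and VI, went opposite to those chains: 6 of 13 fell and 0 rose (median −0.63), and the mean of the list was 9.95 to 10.17 on the healthy arrays and 9.38 to 9.51 on the metastatic IgG arrays. Inmt fell by 1.47 on the log2 scale, Tcf21 by 1.14, Dcn (also among the maturation genes) by 1.05 and Dpt by 0.89, and Pdgfra, the antigen CD140a of the gate, differed by −0.57 ± 0.14 (limma adjusted p = 0.0596). Of 13 mural markers, 3 fell (Myh11, Actg2 and Cnn1) and 0 rose, and Pdgfrb differed by −0.12 ± 0.13. The list mean was 9.02 to 9.04 in healthy and 8.62 to 8.66 in metastatic IgG. The part of fibroblast or mural RNA in the changes of types I, III and VI was not tested. Most lung epithelial markers went the same way as Col4a3 and Col4a4. Of 14, 7 fell and 0 rose (median −0.72), with list means of 9.30 to 9.44 and 8.56 to 8.81. Sftpa1 and Cldn18 fell by 1.70, Ager by 1.49 and Sftpc by 1.36. The 3 markers above 0, none of them called, were Krt8 (0.70 ± 0.18, limma adjusted p = 0.0682), Krt18 (0.55) and Nkx2-1 (0.06). The groups of Krt8 did not overlap. Epcam, the epithelial antigen of the gate, differed by −0.01 ± 0.09. Sftpc still read 11.67 on average on the metastatic IgG arrays and 13.03 on the healthy ones, so epithelial RNA was present in every group. The part of epithelial RNA in the fall of Col4a3 and Col4a4 was not tested. In sorted cells measured in bulk, fewer cells of a type and less RNA per cell cannot be told apart.

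Most lymphatic markers went the same way as the risen chains, and 4 of 7 were called higher (Prox1 by 2.31, Mmrn1 by 1.84, Reln by 1.63 and Thy1 by 1.19). The list means were 9.39 to 10.01 in healthy and 10.82 to 10.97 in metastatic IgG. Pdpn and Flt4 lay higher without a call (0.67 and 0.41, limma adjusted p = 0.0931 and 0.0712). Lyve1 went the other way by −0.20 ± 0.09 (limma adjusted p = 0.28), and its groups did not overlap. Of 11 macrophage and monocyte markers, 3 rose (C1qa, C1qb and Mrc1) and 0 fell. Their list means were 8.73 to 8.93 and 9.04 to 9.11, while the median change was −0.06, with 5 of 11 above 0. Ptprc, the antigen CD45 of the gate, differed by −0.68 ± 0.17 (limma adjusted p = 0.0614) and its groups did not overlap. The part of either in the rise of the collagens was not tested. Of 15 pan-endothelial markers 1 rose, Emcn by 0.53. Of 11 capillary markers Apln rose by 1.07 and Ednrb fell by 0.63. Of 8 mesothelial markers 0 were called by limma, and 2 had an unadjusted p under 0.05, beside 3873 of all 18193 genes. Of 10 chondrocyte markers Cytl1 fell by 1.32, and Acan and Sox9 differed by −0.18 and 0.02.

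**Figure D4:**
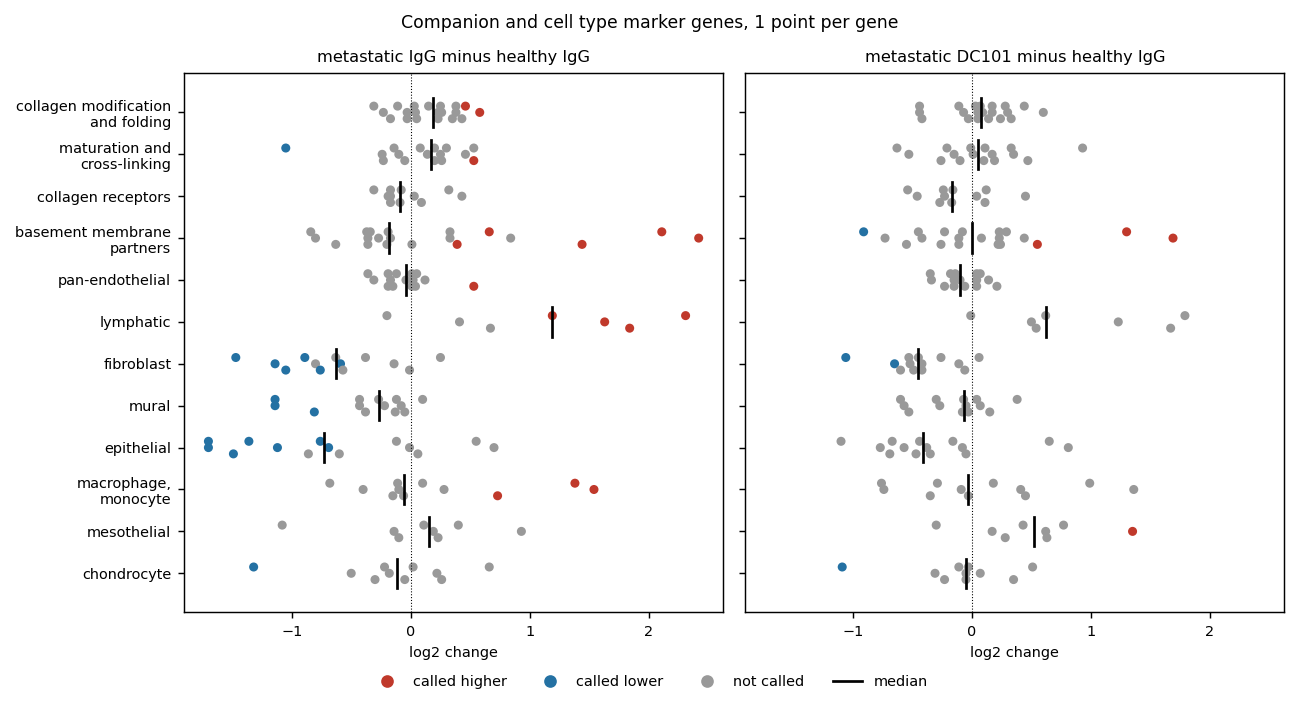
Log2 change (x axis) of each gene of the companion and marker lists (rows) in metastatic IgG minus healthy IgG and in DC101 minus healthy IgG; 1 point is a gene, red is called higher, blue lower, grey not called, and the black line is the median of the list. The fibroblast and epithelial medians lie at −0.63 and −0.72 on the left and at −0.45 and −0.41 on the right.

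DC101 was then compared with IgG in metastatic lungs, which asks whether VEGFR2 blockade moved the collagens. None of the 42 chains and none of the 18193 genes was called (0% of all genes, limma), and no alternative fit called a chain. At an unadjusted p under 0.05 there were 5 chains (Col4a3, Col13a1, Col15a1, Col17a1 and Col19a1, named after their values were seen), against 6.65% of all genes. The groups did not overlap for 3 chains, Col4a3, Col15a1 and Col19a1, against 12.4% of all genes. Col15a1 was at 11.12, 11.43 and 11.25 under DC101, below all 3 metastatic IgG arrays and above all healthy arrays. The difference was −0.62 ± 0.12 (95% interval −0.89 to −0.34, limma adjusted p = 0.737). Col4a3 was at 7.88, 7.97 and 7.85, between the other 2 groups, with a difference of 0.77 ± 0.15 (0.43 to 1.11, limma adjusted p = 0.737). Col17a1 was at 9.35, 8.47 and 8.90 and its groups overlapped (0.62 ± 0.26). Epithelial markers had a median of 0.31 here, with 11 of 14 above 0. The other cell type marker lists had medians from −0.17 (lymphatic) to 0.41 (mesothelial, 8 of 8 above 0), with fibroblast at 0.21 and mural at 0.17. The part of epithelial RNA in the differences of Col4a3 and Col17a1 was not tested.

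For the other chains that had risen with metastasis, the 95% interval of the difference between the antibodies held 0. Col1a1 differed by 0.18 (95% interval −0.34 to 0.71), Col1a2 by 0.08 (−0.41 to 0.56), Col3a1 by 0.17 (−0.23 to 0.57), Col6a2 by 0.23 (−0.22 to 0.68), Col18a1 by −0.26 (−0.70 to 0.18) and Col4a2 by −0.05 (−0.28 to 0.18). The median differences were 0.09 for fibrillar, −0.01 for basement membrane and 0.00 for other chains, beside −0.02 over all genes. None of the companion or marker lists had a called gene in this comparison.

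DC101 was last compared with healthy IgG. This comparison shares its arrays with both comparisons above, so its values are given beside them and not as separate evidence. Of the 42 chains, 8 rose and 0 fell, while 1.58% of all genes were called higher and 0.835% lower. The groups did not overlap for 21 chains, against 23.1% of all genes. The count of 8 depended on single arrays: it was 2 (Col1a1 and Col15a1) without healthy array 1, 5 without healthy array 2, 4 without healthy array 3 or DC101 array 1, 8 without DC101 array 2 and 9 without DC101 array 3.

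Col1a1 was at 12.37, 11.99 and 12.58 under DC101, against 10.28 on average in healthy ECs, and rose 4.09-fold (2.03 ± 0.22, limma adjusted p = 0.00672). Col1a2 was at 12.97, 12.68 and 13.17 (1.36 ± 0.20, limma adjusted p = 0.0213), and Col3a1 at 13.43, 13.25 and 13.41 (1.04 ± 0.13, limma adjusted p = 0.0100). The rise of Col15a1 was 1.66 ± 0.15 (limma adjusted p = 0.00315). Col18a1 was at 10.90, 10.71 and 11.33 and rose by 1.38 ± 0.18 (limma adjusted p = 0.0148), a call lost without healthy array 1 or 2 (0.0569 to 0.0752). The call of Col1a2 was lost without any healthy array or without DC101 array 1 or 3 (0.0509 to 0.0721). That of Col3a1 was lost without healthy array 1 (0.0569) and when probe sets that can bind related transcripts were removed (0.134).

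Of the type VI chains 2 were called. Col6a1 was at 11.03, 10.44 and 11.51 and rose 2.85-fold (1.51 ± 0.25, limma adjusted p = 0.0297). Col6a2 was at 10.12, 10.02 and 10.50 and rose 2.29-fold (1.19 ± 0.17, limma adjusted p = 0.0191). Col6a3 was at 9.95, 9.47 and 9.06 (1.08 ± 0.23, limma adjusted p = 0.0618). The calls of Col6a1 and Col6a2 were lost without DC101 array 1 or without healthy array 1 or 3, and that of Col6a1 also without healthy array 2 (0.0925 to 0.104 for Col6a1 and 0.0538 to 0.0772 for Col6a2). With all 9 arrays in 1 fit Col6a1 was at 0.0522. The type IV chain Col4a5 was at 8.16, 7.89 and 8.13, closer together than on the metastatic IgG arrays, and rose by 0.94 ± 0.13 (limma adjusted p = 0.0155). Its call was lost without any healthy array or DC101 array 1 (0.0521 to 0.0638), with all 9 arrays in 1 fit (0.127) and with the mean of its probe sets (0.0673). The other probe set of Col4a5 gave −0.04 ± 0.12. Col4a2 was at 14.05, 13.99 and 13.97 (0.45 ± 0.11, limma adjusted p = 0.0897), and Col4a1 differed by 0.24 ± 0.10.

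The chains that had fallen with metastasis stayed on the lower side under DC101 but were not called. Col4a3 differed from healthy by −0.70 ± 0.16 (limma adjusted p = 0.0736). Col4a4 was at 7.94, 8.50 and 7.20, the widest spread of the 3 groups, and overlapped with healthy (−0.66 ± 0.31, limma adjusted p = 0.329). Col20a1 was at 7.86, 7.79 and 8.52 (−0.88 ± 0.20, limma adjusted p = 0.0748), and Col12a1 at 9.25, 9.69 and 9.77 (−0.36 ± 0.16, limma adjusted p = 0.318). The epithelial list mean also spread most under DC101, from 8.64 to 9.53. The 21 chains not described singly differed by −0.34 to 0.70, with a lowest adjusted p of 0.233. Median changes were 0.24 for fibrillar, 0.35 for basement membrane and −0.04 for other chains, beside −0.04 over all genes. Of the 13 fibroblast markers 2 fell (Inmt and Pi16), and 1 of 8 mesothelial markers, Wt1, rose by 1.35 ± 0.22. Cytl1 and the capillary marker Ednrb fell by 1.09 and 0.49. Of the basement membrane partners Lama1, Lamb1 and Lamc1 rose and Smoc1 fell.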

How the data were processed

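RNA of sorted lung ECs was amplified with a 3′ in vitro transcription kit and hybridised to Affymetrix mouse genome arrays. The values deposited by the authors are log2 expression values, 1 column per array, normalized by robust multiarray averaging (RMA) in Chipster, which equalises the arrays, so a change of total RNA cannot be seen. The log base was taken from the method. Of 45101 probe sets, the 34945 with a single gene symbol were used, and 932 with more than 1 symbol, 9160 without a name and 64 controls were not. Each gene took its brightest probe set. No filter on dim genes was applied.

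Each pair of groups was fitted on its own 6 arrays in limma 3.58.1 (lmFit, then eBayes; R 4.3.3), after the empirical Bayes comparison in the methods of the study. Tests were two-sided, Benjamini-Hochberg adjustment ran over 18193 genes, and the call threshold was 0.05. The SE after ± is the moderated one. The fit was tested on simulated data. Summaries were made in Python 3.11.15. Chains called in any comparison, chains of the same type number, and the 2 largest uncalled changes per class were described singly (21 of 42). The members, classes and lists were chosen with earlier results of these data known. Alternatives were a fit of all 9 arrays, the mean of all probe sets, removal of probe sets that can bind related transcripts, genes above the median signal, eBayes with trend and robust, a replicate block, and leaving out each array. Sequences are from RefSeq (GRCm38.p6), which listed an upstream window for 33 of the 42 chains. Other collagen genes outside the annotation of the array were not analysed here.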

Additional observations from a re-analysis of the deposited data

How the results depend on the processing

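Without single arrays the number of called chains ranged from 6 to 11 for metastatic IgG against healthy IgG, 0 for DC101 against metastatic IgG, and 2 to 9 for DC101 against healthy IgG. It was 6 in the first comparison without healthy array 1 and without metastatic IgG array 2 or 3. The other settings kept each count within 1.5 times, at 9 to 15, 0, and 6 to 11. The makeup changed more: metastatic IgG against healthy IgG had 7 higher and 4 lower chains in the main fit. It had 8 and 1 with all 9 arrays in 1 fit. With genes above the median signal (9.03) it had 10 and 1, and the fallen chains Col4a3, Col4a4 and Col20a1 lie below that signal. With the replicate number as a block (replicate block) the counts were 9, 0 and 8. With it Col4a2 (limma adjusted p = 0.0726) and Col12a1 (0.102) were not called in metastatic IgG against healthy IgG, nor Col6a1 (0.0567) in DC101 against healthy IgG. The numbers did not pair the arrays, since the deviations of same-numbered arrays correlated at −0.05 to 0.08, and an array correlated best with its own number in 6 of 18 cases. The highest counts (15 and 11) came from eBayes with trend and robust.

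Class medians moved with the filter. With only genes above the median signal, which leaves 5 fibrillar, 4 basement membrane and 4 other chains, they were 0.87, 1.07 and 0.93 for metastatic IgG against healthy IgG, −0.15 and 0.21 for the basement membrane and other chains of DC101 against metastatic IgG, and 1.04, 0.91 and 1.14 for DC101 against healthy IgG. Without probe sets that can bind related transcripts, the fibrillar medians against healthy were 0.30 and 0.42, and that of the other chains of metastatic IgG was 0.06. With the mean of all probe sets the other chains of DC101 against healthy were at 0.04. For type IV alone the medians of the 3 comparisons were −0.12, 0.13 and 0.02. Without single arrays, medians ranged for metastatic IgG against healthy from −0.08 to 0.26 (fibrillar), 0.34 to 0.42 (basement membrane) and 0.00 to 0.11 (other), for DC101 against metastatic IgG from −0.04 to 0.21, −0.04 to 0.13 and −0.04 to 0.01, and for DC101 against healthy from 0.13 to 0.46, 0.32 to 0.39 and −0.13 to −0.03.

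For the 13 called chains, the alternatives gave 453 values over the 3 comparisons. Many of these belong to chains without a call in that comparison, as all do in DC101 against metastatic IgG. Those had no call to lose, so the 54 losses below are not a share of 453. Of the values, 394 lay on the same side of the threshold, 54 lost and 5 gained a call, with 0 reversals of a called direction. The cause was not tested. Col4a1 and Col4a2 lie near the top of the scale, and most other chains are dim, so their changes can be understated.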

Other observations

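Genes of endothelial-to-mesenchymal transition and of activated fibroblasts, listed after the values of the collagens had been seen, were read beside them. Of 12 transition genes, 2 rose in metastatic IgG against healthy IgG: Fn1, fibronectin, by 1.69 ± 0.18 (limma adjusted p = 0.00338) and Snai1, a transcription factor of the transition, by 0.54 ± 0.11 (limma adjusted p = 0.0315). Fn1 also rose in DC101 against healthy IgG, by 1.85 ± 0.12 (limma adjusted p = 0.00114), where Snai1 differed by 0.35 ± 0.16 (limma adjusted p = 0.317). Zeb1, Twist1, Cdh2 and Tagln differed by 0.05, 0.00, 0.03 and 0.10 in the first comparison, and the median of the list was 0.04. Of 5 activated fibroblast genes 0 were called by limma in either comparison against healthy. Postn, Cthrc1 and Lrrc15 differed by −0.21, −0.18 and −0.26 in metastatic IgG, and Fap and Lox by 0.72 and 0.46 (unadjusted p of 0.0326 for Fap, the only one under 0.05 there). Over all genes, 3873 of 18193 had an unadjusted p under 0.05 in metastatic IgG against healthy IgG. In DC101 against healthy IgG, 2 of the 5 had one, Fap (0.61) and Lox (0.93), beside 3088 of the 18193 genes.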
